A study of Homo sapiens with 8 samples.

Results

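The comparison is between the definitive endoderm stage (hDE) and the undifferentiated stage (hESC) of H1, an established human embryonic stem cell line. Its members are the 4 libraries labelled hESC (replicates 1 and 2) and hDE (replicates 1 and 2), of 8 libraries in all, and every gene row of their tables. The other 4 libraries are of later stages of directed differentiation, anterior foregut endoderm (hAFE) and pharyngeal foregut endoderm (hPFE). They entered the fit to estimate the spread between replicates, and their levels are given for a few genes. All 4 stages share the H1 background, and no genetic change is named in the labels. No agent, dose or day of differentiation is given for the hDE cells in the sources used here. The hESC and hDE libraries are titled as re-analysed, so they were first made for earlier work. The hAFE and hPFE libraries are not so titled. In a difference between hDE and these later libraries, stage and origin cannot be told apart. Nothing in the labels says whether replicates came from separate cultures, so the p-values here take their error from the difference between libraries of a stage, and that difference may be technical. Cultures were sequenced in bulk, in which fewer cells of a type and less RNA per cell cannot be told apart.

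Definitive endoderm is the embryonic layer that gives rise to the lining of the gut, the lungs, the liver, the pancreas and the pharynx. In culture it is obtained from stem cells through a stage like the primitive streak, driven by Nodal or activin and WNT signals, during which cells lose the pluripotent gene programme, change their adhesion molecules and become migratory. The families described below are those that send and receive these signals, hold cells together, feed them, and build and fold their proteins.

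Total expected counts, the read numbers that RSEM assigned to genes, were 16785796 and 17802900 in the hESC libraries and 12901077 and 16167869 in the hDE libraries. The signal recognition particle RNAs took 6.0% and 8.4% of the hESC counts and 11.7% and 11.35% of the hDE counts. Levels below are CPM, each gene's count relative to the library's total, after library scaling. Replicates correlated at 0.9877 in hESC and 0.9853 in hDE (Pearson's r of log2 CPM across genes, which are not independent), and 45 and 32 of 9613 genes at 10 CPM or more lay over 2-fold apart. Of 17446 genes tested with edgeR's quasi-likelihood test, 7304 passed an adjusted p of 0.05, which is 41.9% of them; 3533 were higher in hDE (20.3%) and 3771 lower (21.6%). Both hDE libraries lay on the same side of both hESC libraries at 79.8% of the genes tested. In what follows a value after ± is the standard error of a log2 fold change, hDE minus hESC, with 2 libraries per stage. It comes from the fit of all 8 libraries, so the spread of the later stages enters it. In those stages 507 (hAFE) and 485 (hPFE) of the same 9613 genes lay over 2-fold apart. Over every gene tested, the median log2 fold change was -0.0071 and the median size of a change was 0.682. On the authors' TPM values the median of all genes moved to -0.268, and 982 genes were then higher and 4430 lower. With structural RNA, mitochondrial and histone genes left out, 7287 genes passed.

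The label was checked against marker lists, with levels summed over the markers tested. All 11 definitive endoderm markers rose, from summed levels of 24.6 and 24.3 CPM in hESC to 8930 and 9620 CPM in hDE. SOX17, a transcription factor of endoderm, stood at 0 and 0.17 CPM in hESC and 126 and 148 CPM in hDE. CXCR4, the chemokine receptor used to sort these cells, was at 1.02 and 0.509 CPM in hESC and 674 and 606 CPM in hDE. Of 9 stem cell markers 6 fell and none rose, and their summed level went from 5700 and 6230 CPM to 3650 and 3610 CPM. Markers of other cells differed in direction. Of 5 neural markers 1 was tested, and it lay between 0.3 and 1.69 CPM in the 4 libraries. The 5 of 7 markers of heart and lateral mesoderm tested summed to between 4.2 and 6.22 CPM. The 5 of 6 mesenchymal markers tested summed to 384 and 394 CPM in hESC and 23.4 and 22.8 CPM in hDE. Of the 5 mesoderm markers, MIXL1, also a gene of the streak, was tested and rose, and MSGN1 was at 0 in both stages. MIXL1, the only 1 tested, was at 0.42 and 0.791 CPM in hESC and 82.2 and 98.3 CPM in hDE. The 2 of 5 endothelial and blood markers tested summed to 199 and 194 CPM in hESC and 4.09 and 6.01 CPM in hDE. The 5 of 6 trophoblast markers tested summed to between 0.712 and 7.45 CPM, with CGA and ELF5 at 0 in both stages. The 4 of 6 extraembryonic endoderm markers tested summed to 239 and 264 CPM in hESC and 632 and 531 CPM in hDE. Of these 4, 3 rose and 1 fell, which was AFP. AFP was at 0 in hDE, and TTR was at 0 in both stages. The part of other cell types in the results below was not tested.

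**Figure D1:**
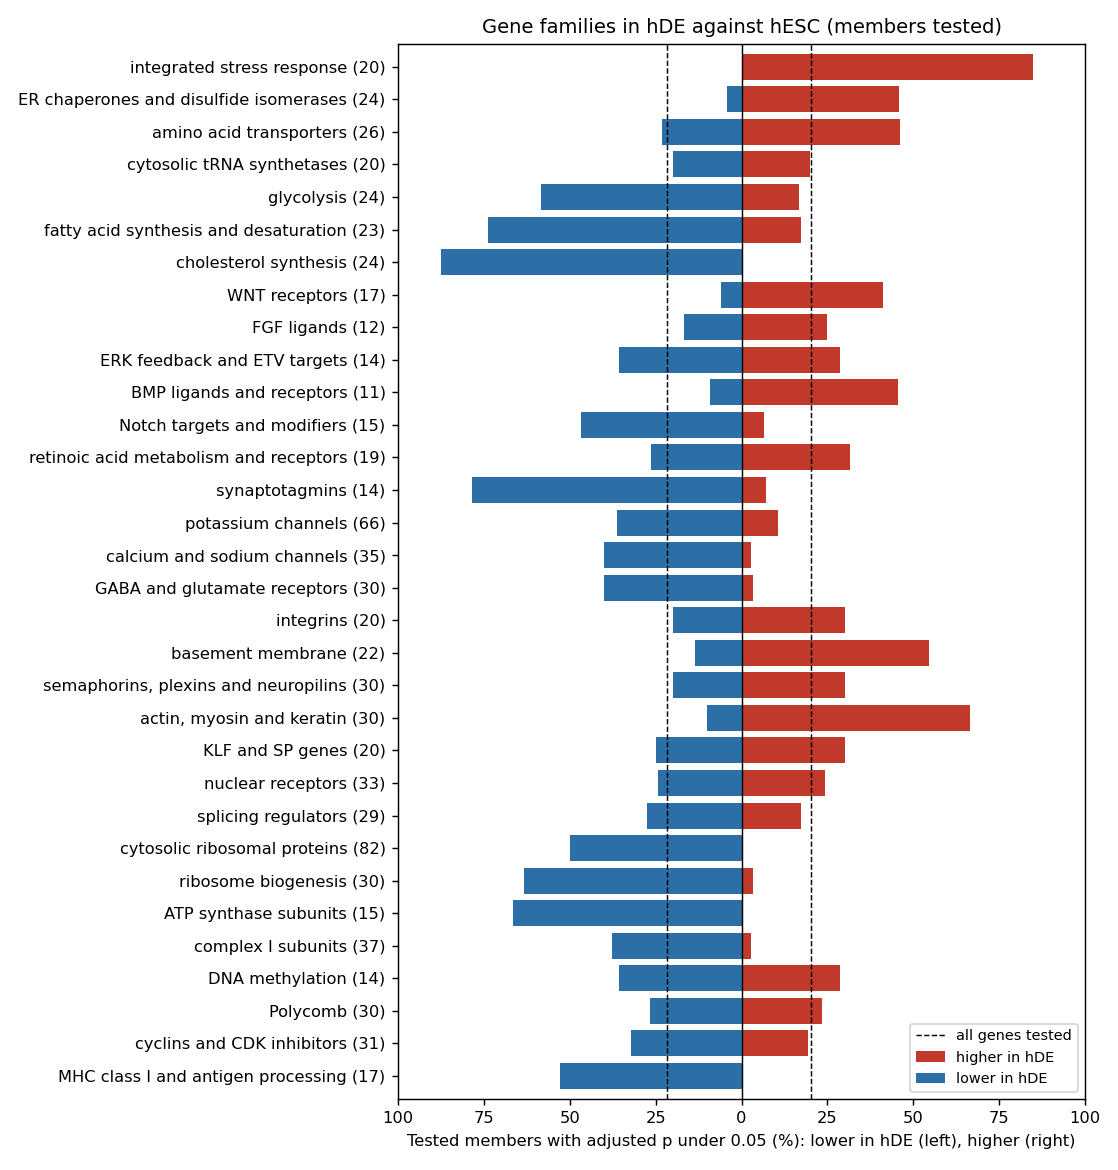
Share of the tested members of each gene family that passed the test, higher in hDE to the right and lower to the left, in percent. The dashed lines mark the shares over all 17446 genes tested, 20.3% higher and 21.6% lower; the stress response and the contractile genes stand furthest to the right, cholesterol synthesis and the synaptotagmins furthest to the left.

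For 2 stress pathways that act on protein supply, whose counts follow, short promoter elements are known, so their sequences come first. The unfolded protein response of the endoplasmic reticulum (ER) acts in part through an element bound by ATF6 with NF-Y, whose letters are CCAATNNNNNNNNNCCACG. The integrated stress response acts through ATF4, which binds with C/EBP partners to an element searched here as TGATGNAA. Both were searched on either strand in the 250 bases before the RefSeq start of each gene (GRCh38.p14). The first was found in 7 of the 23 ER chaperone and disulfide isomerase genes with a promoter entry and in 25 of 27305 genes in the table (0.0916%). Below are the elements of HSPA5 and CRELD2, whose mRNAs rose, and of HSP90B1 and CALR, whose mRNAs did not pass the test. Bases are in lower case on the gene's own strand with the fixed letters of the element in capitals.
HSPA5, chr9:125241371-125241429, minus strand: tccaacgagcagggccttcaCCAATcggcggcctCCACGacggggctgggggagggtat
CRELD2, chr22:49918534-49918592, plus strand: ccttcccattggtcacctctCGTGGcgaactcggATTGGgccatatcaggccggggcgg
HSP90B1, chr12:103930196-103930359, plus strand: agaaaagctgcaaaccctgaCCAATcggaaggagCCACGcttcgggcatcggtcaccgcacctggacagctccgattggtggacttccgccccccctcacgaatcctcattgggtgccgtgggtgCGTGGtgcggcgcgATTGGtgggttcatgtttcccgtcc
CALR, chr19:12938364-12938422, plus strand: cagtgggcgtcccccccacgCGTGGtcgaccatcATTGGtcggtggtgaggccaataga
The HSPA5 element begins 66 bases before the gene's start and that of CRELD2 80 bases before, while HSP90B1 carries 2, beginning 194 and 89 bases before its start. A match describes these letters only. CANX, PDIA6 and ERO1B, which also hold the element, did not pass the test. HSP90B1 passed as higher in 7 of 21 alternatives, with DESeq2 among them (adjusted p from 0.00119 to 0.0473 in the 7), and ERO1B in 2, both fits of the 4 libraries alone.

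The second element was found in 5 of the 17 stress response genes with a promoter entry, and in 1061 of the 27305 genes (3.89%). All 5 genes, which are shown because of the match, passed the test as higher in hDE. So did 17 of all 20 list genes tested (85%), these 5 among them, so the count does not set genes with the match apart.
ASNS, chr7:97872449-97872496, minus strand: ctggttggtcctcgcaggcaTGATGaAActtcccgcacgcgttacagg
CHAC1, chr15:40953242-40953289, plus strand: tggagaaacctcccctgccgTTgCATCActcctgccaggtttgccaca
ATF3, chr1:212565196-212565243, plus strand: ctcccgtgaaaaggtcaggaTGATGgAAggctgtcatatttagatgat
HERPUD1, chr16:56931946-56931993, plus strand: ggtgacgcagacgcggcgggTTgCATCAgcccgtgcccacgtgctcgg
CEBPG, chr19:33374051-33374098, plus strand: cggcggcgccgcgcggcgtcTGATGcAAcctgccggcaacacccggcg

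Of 20 stress response genes tested, 17 rose and none fell, with a median log2 fold change of 1.75. PPP1R15A, the phosphatase subunit that restores translation after the response, was at 9.19 and 4.75 CPM in hESC and 67.9 and 88.9 CPM in hDE (log2 fold change 3.49 ± 0.39, adjusted p = 0.000526). VEGFA, the vascular growth factor, was at 34.2 and 24.7 CPM in hESC and 187 and 169.7 CPM in hDE (log2 fold change 2.60 ± 0.27, adjusted p = 0.000384). The libraries of the stages did not overlap for either gene, but the hESC libraries differed from each other: DDIT3, the CHOP transcription factor, was at 12.6 and 3.9 CPM in hESC and 82.4 and 77.4 CPM in hDE. Among the genes printed above, HERPUD1, a factor of ER-associated degradation, changed most (2.94 ± 0.29), followed by ATF3 (2.48 ± 0.67), CHAC1, which degrades glutathione (1.39 ± 0.42), asparagine synthetase ASNS (0.98 ± 0.26) and CEBPG (0.84 ± 0.20). With hESC replicate 1, hESC replicate 2, hDE replicate 1 or hDE replicate 2 left out, 7 to 12 higher and 0 lower were called, and ASNS lost its call each time (adjusted p = 0.0781, 0.115, 0.0646 and 0.109). ATF3 did so too (adjusted p from 0.053 to 0.131). CHAC1 kept its call only without hESC replicate 1 and CEBPG only without hDE replicate 2, the other adjusted p running from 0.0735 to 0.123 and from 0.0627 to 0.0945. On TPM values the list had 6 higher and 0 lower, and ASNS, ATF3, CHAC1 and CEBPG did not pass (adjusted p = 0.41, 0.101, 0.147 and 0.567). ATF3, CHAC1 and CEBPG are named because of the match, outside the rule for named genes.

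Of 24 ER chaperones and disulfide isomerases, 11 rose and 1 fell. HSPA5, the main ER chaperone BiP, was at 105 and 111 CPM in hESC and 394 and 322 CPM in hDE (log2 fold change 1.73 ± 0.17, adjusted p = 0.00032). Its co-chaperone DNAJC3 was at 46.2 and 55 CPM in hESC and 157 and 113 CPM in hDE (log2 fold change 1.42 ± 0.20, adjusted p = 0.00144). CRELD2, a disulfide isomerase of stressed cells, was at 11.1 and 11 CPM in hESC and 28.8 and 19.6 CPM in hDE. Without hDE replicate 1, hESC replicate 1 or hESC replicate 2 the adjusted p of CRELD2 was 0.161, 0.111 and 0.115. Other members of the same machinery did not pass the test: calreticulin CALR was at 577 and 744 CPM in hESC and 721 and 504 CPM in hDE. HSP90B1 was at 552 and 701 CPM in hESC and 1217 and 808 CPM in hDE. TXNDC5, a thioredoxin-like isomerase, fell from 234 and 284 CPM to 105 and 87.6 CPM. On TPM values the counts turned around, with 1 higher and 3 lower, although the list's median lay 0.36 above that of all genes. The 4 omissions of a library left 2 to 8 higher and 1 lower.

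Amino acid supply changed in both directions. Of 26 transporters, 12 rose and 6 fell, and on TPM values 5 higher and 8 lower. The light chain SLC7A5 of the large neutral amino acid exchanger was at 156 and 138 CPM in hESC and 1116 and 1190 CPM in hDE (log2 fold change 2.97 ± 0.40, adjusted p = 0.00109). Its heavy chain SLC3A2 was at 313 and 299 CPM in hESC and 864 and 904 CPM in hDE (log2 fold change 1.53 ± 0.20, adjusted p = 0.00108). Both subunits of that exchanger therefore rose, in libraries that did not overlap. The glutamate carrier SLC1A1 was at 13.5 and 10.6 CPM in hESC and 168 and 128 CPM in hDE (log2 fold change 3.62 ± 0.25, adjusted p = 7.43e-05). A second light chain for the same partner, SLC7A8, moved against SLC7A5, from 188 and 207 CPM to 4.54 and 5.5 CPM (log2 fold change -5.29 ± 0.18, adjusted p = 1.04e-05). The taurine carrier SLC6A6 fell from 178 and 162 CPM to 22.1 and 18.9 CPM, and SLC38A4, a carrier of small neutral amino acids, was at 25.5 and 32.2 CPM in hESC and 0 and 0.0724 CPM in hDE and so 725-fold lower (95% counting interval 130 to 28700) in hDE. With a library of either stage left out, 7 to 9 higher and 5 to 6 lower were called.

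The enzymes that charge tRNAs did not move together. Of 20 cytosolic synthetases 4 rose, 4 fell and 12 did not pass (1 higher and 6 lower on TPM values, and 3 higher and 1 to 3 lower with a library omitted). That is 20% each way, against 20.3% higher and 21.6% lower over all genes tested. The tryptophan enzyme WARS stood out with 87.9 and 94.4 CPM in hESC and 519 and 491 CPM in hDE (log2 fold change 2.47 ± 0.36, adjusted p = 0.00164). The serine enzyme SARS was at 141 and 126 CPM in hESC and 308 and 294 CPM in hDE (log2 fold change 1.18 ± 0.12, adjusted p = 0.000404). The phenylalanine subunit FARSB went the other way (log2 fold change -1.01 ± 0.13, adjusted p = 0.00109). Of the serine, one-carbon and asparagine synthesis genes 7 of 19 rose and 4 fell (0 higher and 5 lower on TPM values; 1 to 3 higher and 2 to 3 lower with a library omitted). In one-carbon metabolism, which moves single carbon units on folate, the cytosolic enzyme MTHFD1 fell from 84 and 83.1 CPM to 24.6 and 28.1 CPM (log2 fold change -1.67 ± 0.17, adjusted p = 0.00038), and its cytosolic neighbour SHMT1 also fell (log2 fold change -0.81 ± 0.14, adjusted p = 0.00342).

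More genes of sugar metabolism fell than rose. Of 24 glycolysis genes, 14 fell and 4 rose, with a median of -0.78 (on TPM values 2 higher and 18 lower). The glucose carrier SLC2A1 was at 161 and 148 CPM in hESC and 23.4 and 26.4 CPM in hDE (log2 fold change -2.63 ± 0.16, adjusted p = 5.67e-05). Hexokinase HK1 was at 159 and 147 CPM in hESC and 27.1 and 26.8 CPM in hDE (log2 fold change -2.51 ± 0.29, adjusted p = 0.000581). Platelet-type phosphofructokinase PFKP was at 87.5 and 78 CPM in hESC and 17.4 and 20.9 CPM in hDE. Lactate dehydrogenase B, LDHB, was at 1299 and 1405 CPM in hESC and 418 and 418 CPM in hDE. SLC2A1, HK1, PFKP and LDHB were thus each lower in both hDE libraries. The list's summed level went from 10780 CPM as the hESC mean to 11160 CPM as the hDE mean. Pyruvate kinase PKM went up, from 520.5 and 497 CPM to 1185 and 1360 CPM (log2 fold change 1.32 ± 0.19, adjusted p = 0.00147). A second glucose carrier, SLC2A3, was at 745 and 703 CPM in hESC and 4833 and 4019 CPM in hDE (log2 fold change 2.61 ± 0.73, adjusted p = 0.0227); its level in the later stages ran from 66.74 to 2224 CPM, and without hESC replicate 1, hESC replicate 2, hDE replicate 1 or hDE replicate 2 its adjusted p was 0.115, 0.124, 0.0901 and 0.0717. The 4 omissions left 1 to 2 higher and 10 to 11 lower in the list. LDHA and ENO1 did not pass the test (0.23 ± 0.19 and -0.22 ± 0.17).

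Most genes of fatty acid synthesis were lower in hDE. Of 23 genes, 17 fell and 4 rose, with a median of -1.31; the 24 cholesterol synthesis genes, whose regulation they partly share, had 21 lower, none higher and a median of -1.36. Stearoyl-CoA desaturase SCD was at 1495 and 1762 CPM in hESC and 373 and 336 CPM in hDE (log2 fold change -2.20 ± 0.26, adjusted p = 0.000606). The elongase ELOVL6 was at 146 and 163 CPM in hESC and 39.7 and 48.6 CPM in hDE (log2 fold change -1.80 ± 0.20, adjusted p = 0.000488). Acetyl-CoA carboxylase ACACA was at 298 and 354 CPM in hESC and 106 and 112 CPM in hDE (log2 fold change -1.58 ± 0.22, adjusted p = 0.00125). SCD, ELOVL6 and ACACA were each lower, with libraries apart. Paralogs of these enzymes rose: ELOVL2, which extends polyunsaturated chains, was at 1.2 and 0.961 CPM in hESC and 72.6 and 68.9 CPM in hDE (log2 fold change 6.02 ± 0.49, adjusted p = 0.000135). The desaturase SCD5 was at 1.38 and 1.07 CPM in hESC and 38.8 and 25 CPM in hDE (log2 fold change 4.69 ± 0.78, adjusted p = 0.00289). The regulator SREBF1 did not pass (-0.17 ± 0.22). Omitting a library of either stage left 2 to 3 higher and 12 to 15 lower, and TPM values gave 2 higher and 16 lower. Carriers of lipid in plasma appeared at low levels: APOA1 was at 0.12 and 0.283 CPM in hESC and 8.1 and 10.3 CPM in hDE and APOA2 at 0 and 0.0565 CPM in hESC and 6.41 and 12 CPM in hDE.

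**Figure D2:**
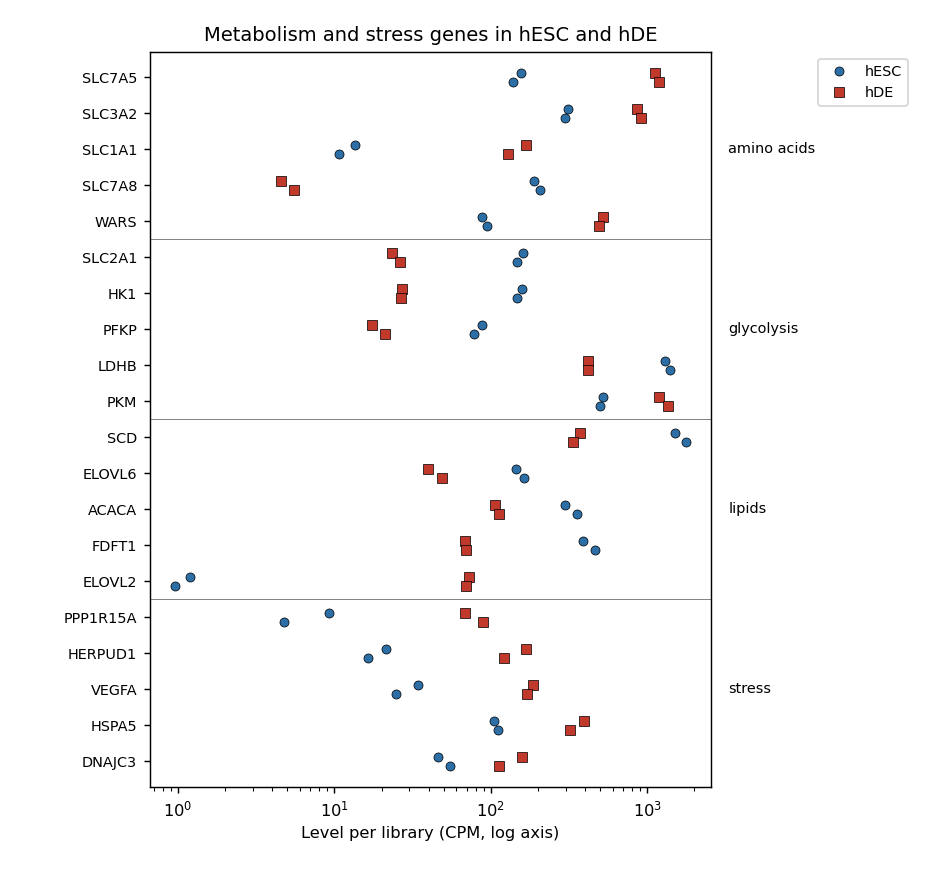
Level of 20 genes of amino acid transport, glycolysis, lipid synthesis and stress in each hESC and hDE library, in CPM on a log axis; each point is 1 library. SLC7A5, SLC1A1, ELOVL2 and PPP1R15A lie to the right in hDE, and SLC7A8, SLC2A1, HK1, SCD and FDFT1 to the left, with no overlap between the stages.

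In the WNT pathway several receptors rose. Of 17 receptor genes 7 rose and 1 fell, and on TPM values 4 higher and 4 lower. FZD5, a Frizzled receptor, was at 49 and 41.8 CPM in hESC and 1408 and 1270 CPM in hDE (log2 fold change 4.88 ± 0.53, adjusted p = 0.000436). FZD8, from the same branch of the family, was at 9.37 and 9.55 CPM in hESC and 163 and 181 CPM in hDE (log2 fold change 4.18 ± 0.18, adjusted p = 1.93e-05). ROR2, a co-receptor for WNT5A, was at 3.06 and 2.54 CPM in hESC and 197 and 212 CPM in hDE (log2 fold change 6.19 ± 0.68, adjusted p = 0.000474). The stages did not overlap for any of the 3, while FZD3 fell (log2 fold change -0.88 ± 0.17, adjusted p = 0.00534) and LRP6, the shared co-receptor, did not pass (-0.02 ± 0.12). LGR5, the receptor for R-spondins, rose from 0.3 and 0.0565 CPM to 18.6 and 19.6 CPM. Among 8 ligands, WNT3 rose from 0.661 and 0.396 CPM to 16.6 and 12.8 CPM and WNT5A fell from 3.6 and 3.56 CPM to 0.89 and 0.29 CPM, though not on TPM values (adjusted p = 0.27). Of the target genes 4 of 8 rose and 2 fell (0 higher and 1 lower on TPM values; 2 higher and 1 to 2 lower with a library omitted): AXIN2, which feeds back on the pathway, was at 19.3 and 25.8 CPM in hESC and 64.1 and 79.7 CPM in hDE (log2 fold change 1.67 ± 0.30, adjusted p = 0.004). CCND1, cyclin D1, was at 74.7 and 77.5 CPM in hESC and 6.59 and 5.58 CPM in hDE (log2 fold change -3.65 ± 0.25, adjusted p = 8.23e-05). The 4 omissions left 5 to 6 higher and 1 lower among the receptors.

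Among FGF ligands FGF17 and FGF8 rose while FGF2 and FGF19 fell. FGF17 was at 0.12 and 0.113 CPM in hESC and 389 and 378 CPM in hDE (log2 fold change 11.58 ± 0.32, adjusted p = 5.63e-06). FGF8, its close relative, was at 0.0601 and 0.17 CPM in hESC and 17.9 and 16.4 CPM in hDE (log2 fold change 7.10 ± 1.07, adjusted p = 0.00181). FGF2, the factor used to keep stem cells undifferentiated, was at 172 and 162 CPM in hESC and 5.96 and 6.37 CPM in hDE (log2 fold change -4.75 ± 0.24, adjusted p = 2.55e-05). Over the 12 ligands tested, 3 rose and 2 fell (2 higher and 3 lower on TPM values), the other fall being FGF19, from 10.7 and 13.2 CPM to 0.267 and 0.507 CPM. In the later stages FGF17 was at 0.397 and 0.146 CPM in hAFE and 0.729 and 0.433 CPM in hPFE. Its high level was thus seen in hDE and in neither later stage. The receptors FGFR1 and FGFR2 fell, from 320.5 and 320.2 CPM to 87.2 and 78.2 CPM (log2 fold change -1.95 ± 0.24, adjusted p = 0.000766) and from 70.1 and 60.3 CPM to 22.2 and 20.6 CPM (log2 fold change -1.61 ± 0.17, adjusted p = 0.00038), and FGFRL1, which lacks a kinase domain, rose from 6.13 and 4.58 CPM to 21.7 and 19.3 CPM (log2 fold change 1.94 ± 0.24, adjusted p = 0.000788). The genes that ERK signalling induces as feedback did not move as 1 group, with 4 of 14 higher and 5 lower (3 higher and 2 lower with a library omitted). The phosphatase DUSP6 was at 315 and 318 CPM in hESC and 66.9 and 65.8 CPM in hDE. The transcription factor ETV1 was at 96.9 and 100.3 CPM in hESC and 11.6 and 12.5 CPM in hDE. The phosphatase DUSP4 was at 13.4 and 13.3 CPM in hESC and 371 and 265 CPM in hDE. DUSP6 and ETV1 were lower in hDE (adjusted p = 0.00141 and 0.000472) and DUSP4 higher (adjusted p = 5.83e-05).

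BMP ligands and receptors had 5 of 11 genes higher and 1 lower (3 higher and 2 lower on TPM values). BMP2 was at 2.22 and 2.04 CPM in hESC and 248 and 235 CPM in hDE (log2 fold change 6.82 ± 0.25, adjusted p = 1.24e-05). BMP7 was at 4.87 and 2.77 CPM in hESC and 39.6 and 38.5 CPM in hDE (log2 fold change 3.35 ± 0.41, adjusted p = 0.000768). The type II receptor BMPR2 was at 23.2 and 22.3 CPM in hESC and 168 and 138 CPM in hDE (log2 fold change 2.75 ± 0.17, adjusted p = 5.83e-05). Ligands and a receptor thus rose together, and so did a secreted antagonist: NBL1 was at 2.22 and 1.87 CPM in hESC and 70.1 and 65.9 CPM in hDE (log2 fold change 5.05 ± 0.36, adjusted p = 8.96e-05). Of the antagonists 5 of 14 rose and 3 fell (3 to 5 higher and 1 to 2 lower with a library omitted). The antagonists' summed level went from 554.7 CPM as the hESC mean to 8412 CPM as the hDE mean, of which NBL1 was a small part. That of the ligands and receptors went from 191.9 to 603.4 CPM. CHRDL1, another antagonist, fell from 14.4 and 16.7 CPM to 1.25 and 0.724 CPM. The direct target ID3 was at 96.1 and 98.7 CPM in hESC and 7.66 and 10.1 CPM in hDE (log2 fold change -3.45 ± 0.49, adjusted p = 0.00146). SMAD6, which inhibits the pathway, was at 2.64 and 2.32 CPM in hESC and 32 and 24.5 CPM in hDE (log2 fold change 3.50 ± 0.57, adjusted p = 0.00252). Of 9 targets tested, 2 rose and 2 fell (1 higher and 2 lower on TPM values, and 1 to 2 higher and 1 lower with a library omitted). That is 22.22% each way, against 20.3% higher and 21.6% lower over all genes tested.

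Of 15 Notch target and modifier genes 7 fell and 1 rose. The transcriptional repressor HES1, the usual readout of the pathway, was at 13.9 and 13.2 CPM in hESC and 0.801 and 1.67 CPM in hDE (log2 fold change -3.42 ± 0.34, adjusted p = 0.000322). The Notch ligand JAG1 was at 39.7 and 40.3 CPM in hESC and 3.74 and 10.9 CPM in hDE (log2 fold change -2.42 ± 0.53, adjusted p = 0.00873), while the receptor NOTCH2 was at 130.3 and 121 CPM in hESC and 229.7 and 208 CPM in hDE. NOTCH2 passed the test as higher (log2 fold change 0.80 ± 0.15, adjusted p = 0.00519), though without hESC replicate 2 its adjusted p was 0.0524. The 4 omissions left 1 higher and 3 to 4 lower among the targets. Of the receptors and ligands 3 of 10 rose and 3 fell (1 higher and 3 lower on TPM values; 1 to 3 higher and 1 to 2 lower with a library omitted).

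Retinoic acid genes exchanged members. CYP26A1, which breaks retinoic acid down, was at 5.47 and 2.43 CPM in hESC and 1856 and 1609 CPM in hDE (log2 fold change 8.78 ± 1.83, adjusted p = 0.00738); without hESC replicate 1 or hESC replicate 2 its adjusted p was 0.055 and 0.07. ALDH1A3, which makes it, was at 5.95 and 2.88 CPM in hESC and 29.5 and 33.3 CPM in hDE (log2 fold change 2.83 ± 0.51, adjusted p = 0.00405). The receptor RARB rose from 0.12 and 0.113 CPM to 23.3 and 19.1 CPM (log2 fold change 7.41 ± 0.79, adjusted p = 0.000419), and the receptor RARG fell from 35 and 35.2 CPM to 3.03 and 2.32 CPM (log2 fold change -3.72 ± 0.30, adjusted p = 0.000143). The binding protein CRABP1 fell from 72.4 and 69.7 CPM to 4.81 and 6.16 CPM. Over 19 genes 6 rose and 5 fell, and on TPM values the counts were 4 higher and 5 lower (3 to 4 higher and 3 to 4 lower with a library omitted).

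In 2 systems the receptor rose and its ligand fell. ACKR3, the scavenging receptor for CXCL12, was at 0.721 and 1.13 CPM in hESC and 219.7 and 247 CPM in hDE (log2 fold change 7.96 ± 0.81, adjusted p = 0.000353). CXCL12 was at 27 and 34.2 CPM in hESC and 3.92 and 3.77 CPM in hDE (log2 fold change -2.99 ± 0.54, adjusted p = 0.00386). The receptor tyrosine kinase KIT was at 20.2 and 19.1 CPM in hESC and 92 and 93.6 CPM in hDE (log2 fold change 2.24 ± 0.18, adjusted p = 0.000128). Its ligand KITLG was at 14.6 and 13.6 CPM in hESC and 1.16 and 1.01 CPM in hDE (log2 fold change -3.69 ± 0.66, adjusted p = 0.00368). Neither pair overlapped between stages, and on TPM values KITLG did not pass (adjusted p = 0.167). APELA, a peptide that acts through the apelin receptor, was at 147 and 143 CPM in hESC and 0.267 and 0.145 CPM in hDE (log2 fold change -9.44 ± 1.18, adjusted p = 0.000841). Of the genes of chemokines, KIT and apelin 4 of 16 rose and 6 fell, and of the peptide hormones and granins 6 of 25 rose and 9 fell (3 to 4 higher and 6 to 8 lower with a library omitted). Among the latter, stanniocalcin STC1 rose from 49.2 and 52.1 CPM to 865 and 799.5 CPM (log2 fold change 4.04 ± 0.34, adjusted p = 0.00017), and the granins CHGA and SCG3, which fill secretory vesicles, fell from 40.8 and 57.9 CPM to 1.51 and 1.59 CPM and from 108 and 143 CPM to 9.17 and 7.82 CPM.

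**Figure D3:**
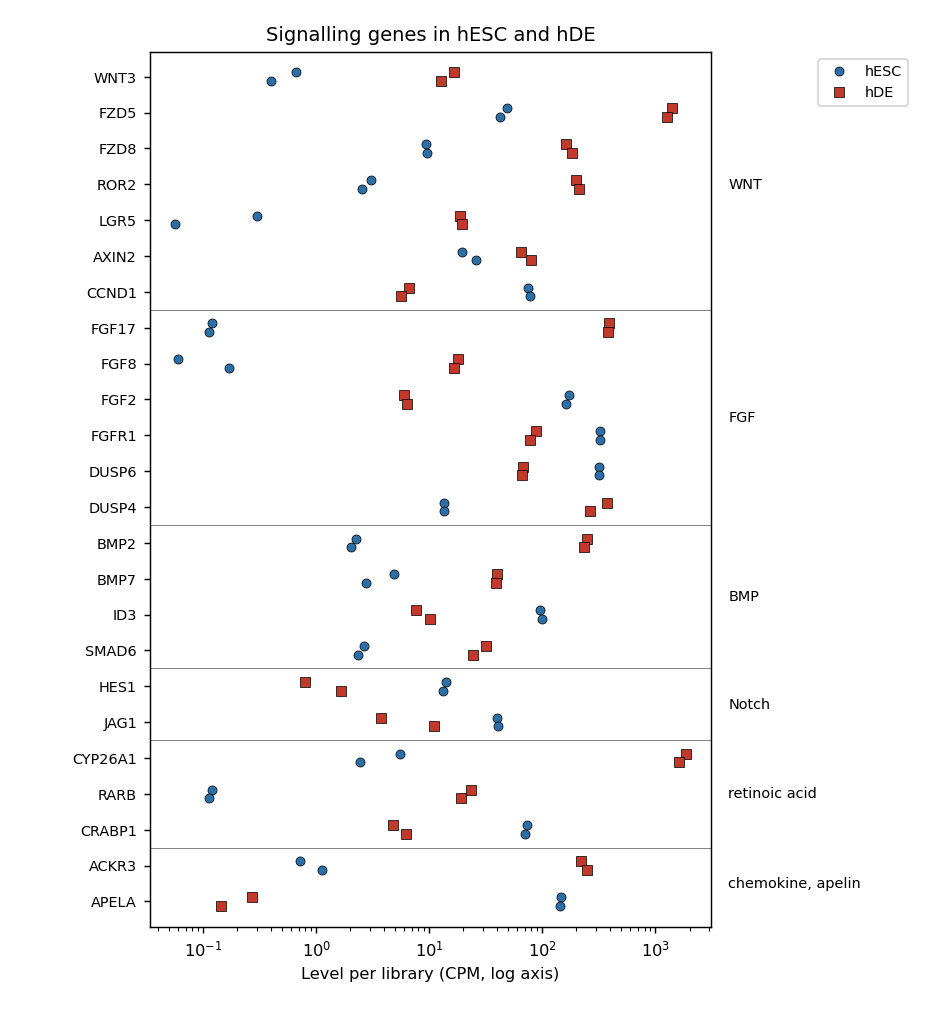
Level of 24 signalling genes in each hESC and hDE library, in CPM on a log axis; each point is 1 library. FGF17, BMP2, ACKR3, ROR2 and FZD5 lie to the right in hDE, and APELA, FGF2, CCND1 and HES1 to the left.

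Genes known from neurons and other excitable cells were present in hESC, and more of them fell than rose in hDE. Of 14 synaptotagmins, the calcium sensors of vesicle release, 11 fell and 1 rose, with a median of -2.91 (0 higher and 8 lower on TPM values). SYT1 was at 36.2 and 43.8 CPM in hESC and 1.87 and 1.88 CPM in hDE (log2 fold change -4.41 ± 0.58, adjusted p = 0.00108). SYT13 was at 27.1 and 24.7 CPM in hESC and 3.03 and 4.34 CPM in hDE (log2 fold change -2.80 ± 0.27, adjusted p = 0.000279). Potassium channel genes had 24 of 66 lower and 7 higher. Among them KCND2 was at 32 and 30.1 CPM in hESC and 0.356 and 1.09 CPM in hDE (log2 fold change -5.36 ± 0.52, adjusted p = 0.000275) and KCNS3 at 20.7 and 22.2 CPM in hESC and 1.07 and 1.45 CPM in hDE (log2 fold change -4.07 ± 0.25, adjusted p = 5.58e-05), whereas KCNG1, a silent subunit that modifies other channels, rose from 8.71 and 8.03 CPM to 137 and 134 CPM and KCNK12, of the tandem-pore family, from 2.7 and 2.77 CPM to 77.4 and 62.3 CPM. Calcium and sodium channels had 14 of 35 lower and 1 higher, and GABA and glutamate receptors 12 of 30 lower and 1 higher. The AMPA receptor subunit GRIA4 fell from 25.8 and 19.4 CPM to 0.178 and 0.0724 CPM (log2 fold change -7.46 ± 0.76, adjusted p = 0.00034). CNTNAP2, an adhesion molecule of the neurexin superfamily, rose from 97.7 and 100.2 CPM to 537 and 493 CPM (log2 fold change 2.38 ± 0.26, adjusted p = 0.000482). The median log2 fold changes of the channel and receptor lists were -1.59, -1.12 and -1.39. On TPM values these medians were -0.18, -0.28 and -0.47, against -0.268 over all genes, and that of the synaptotagmins -0.99. The TPM counts were 5 higher and 23 lower, 1 and 14, and 1 and 12. Summed as stage means, potassium channels went from 343.3 CPM in hESC to 405.3 CPM in hDE. Calcium and sodium channels went from 228.7 to 125.8 CPM, and the receptors from 555 to 393.5 CPM. Omitting a library of either stage left 0 to 1 higher and 7 to 9 lower for the synaptotagmins, 5 to 6 higher and 12 to 14 lower for potassium channels, 1 higher and 8 to 9 lower for calcium and sodium channels and 0 to 1 higher and 8 to 10 lower for the receptors.

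**Figure D4:**
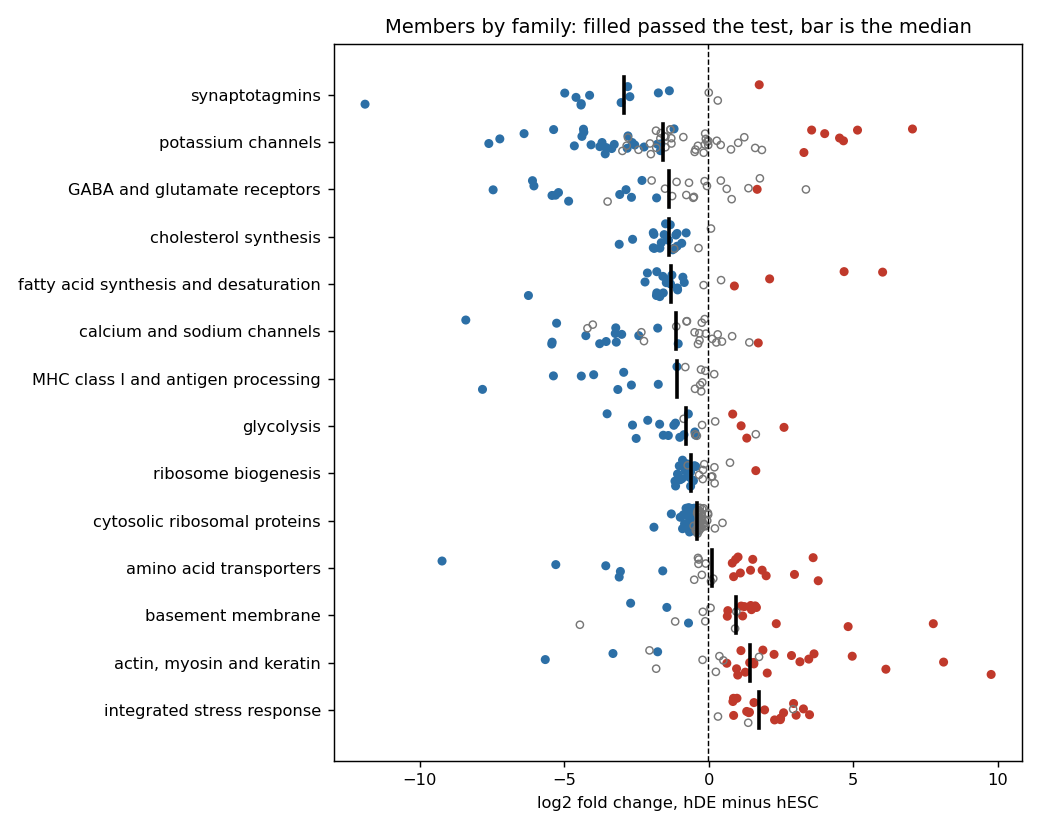
Log2 fold change (hDE minus hESC) of every tested member of 14 families; filled points passed the test, open points did not, and the bar is the family's median. The medians run from -2.91 in the synaptotagmins to 1.75 in the stress response, against -0.0071 over all genes (dashed line).

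Cell adhesion changed from 1 cadherin to another. CDH1, E-cadherin of epithelia, was at 244 and 239.9 CPM in hESC and 27.1 and 28 CPM in hDE (log2 fold change -3.13 ± 0.18, adjusted p = 4.75e-05). CDH2, N-cadherin, was at 39.7 and 41.9 CPM in hESC and 925 and 867 CPM in hDE (log2 fold change 4.46 ± 0.18, adjusted p = 1.66e-05). Of the classical and type II cadherins 2 of 18 rose and 9 fell (1 higher and 6 lower on TPM values; 1 to 2 higher and 6 to 8 lower with a library omitted). P-cadherin CDH3 fell from 159 and 167 CPM to 57 and 65.2 CPM (log2 fold change -1.42 ± 0.15, adjusted p = 0.000408). EPCAM and ESRP1, both marks of epithelial cells, did not follow CDH1: EPCAM rose from 73.6 and 100.2 CPM to 226 and 218 CPM and ESRP1 was at 155 and 159 CPM in hESC and 156 and 162 CPM in hDE, which did not pass the test. Among 20 integrins, 6 rose and 4 fell, counts that held when any of the 4 libraries was omitted. That is 30% higher and 20% lower, against 20.3% higher and 21.6% lower over all genes tested. ITGAV and ITGA5, whose dimers bind fibronectin and vitronectin, were at 76.2 and 82.7 CPM in hESC and 576 and 450 CPM in hDE (log2 fold change 2.69 ± 0.27, adjusted p = 0.000338) and at 32.5 and 27.6 CPM in hESC and 221 and 164 CPM in hDE (log2 fold change 2.68 ± 0.30, adjusted p = 0.0005). ITGB5, a partner of ITGAV, rose from 102 and 88.7 CPM to 453 and 470.3 CPM (log2 fold change 2.28 ± 0.29, adjusted p = 0.000901). These 3 subunits rose in both hDE libraries. The laminin-binding ITGA6 fell from 418 and 455 CPM to 121 and 106 CPM (log2 fold change -1.94 ± 0.25, adjusted p = 0.00103). Fibronectin itself, FN1, rose from 62.4 and 56.7 CPM to 315 and 281 CPM (log2 fold change 2.32 ± 0.33, adjusted p = 0.00137).

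In the basement membrane, the sheet that laminins and type IV collagen build under epithelia, 12 of 22 genes rose and 3 fell (8 to 10 higher and 1 to 2 lower with 1 of the 4 libraries omitted). The 6 collagen IV chains lie in the genome as 3 head-to-head pairs, and all 6 rose. COL4A3 and COL4A4, on chromosome 2 with 112 bases between their starts in the annotation (GENCODE 29, hg38), were low in hESC. The stretch between both starts is shown because it lies upstream of both genes, with no part of it marked.
COL4A3 and COL4A4, chr2:227164454-227164564, plus strand: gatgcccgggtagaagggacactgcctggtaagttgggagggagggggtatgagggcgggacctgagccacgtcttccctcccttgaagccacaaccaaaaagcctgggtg
COL4A3 was at 0.24 and 0.0565 CPM in hESC and 32.9 and 34.9 CPM in hDE (log2 fold change 7.78 ± 1.38, adjusted p = 0.00365). COL4A4 was at 1.26 and 1.07 CPM in hESC and 31.7 and 35.1 CPM in hDE (log2 fold change 4.83 ± 1.05, adjusted p = 0.00861; adjusted p = 0.0649 and 0.0731 without hESC replicate 1 or 2). In the pair on the X chromosome, 347 bases apart, COL4A6 rose from 35.3 and 30.8 CPM to 98.1 and 104 CPM. The 2 genes of each pair thus moved in the same direction, and the pair on chromosome 13, whose annotated genes overlap by 1421 bases, did so as well. Heparan sulfate genes had 9 of 27 higher and 4 lower (3 higher and 4 lower on TPM values): the sulfatase SULF2 rose from 16.6 and 16 CPM to 192 and 158 CPM (log2 fold change 3.42 ± 0.38, adjusted p = 0.000474), and syndecan SDC1 fell from 38.1 and 39.9 CPM to 5.16 and 4.56 CPM (log2 fold change -3.00 ± 0.20, adjusted p = 7.1e-05). Of the matrix proteases and their inhibitors 10 of 30 rose and 8 fell (4 higher and 8 lower on TPM values; 6 to 7 higher and 4 to 6 lower with a library omitted). The metalloprotease ADAM19 rose from 21.4 and 24.6 CPM to 563 and 583 CPM (log2 fold change 4.64 ± 0.15, adjusted p = 6.94e-06), and MMP16, a membrane-bound protease, fell from 113 and 120.4 CPM to 8.1 and 12.2 CPM (log2 fold change -3.52 ± 0.54, adjusted p = 0.00202).

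Guidance receptors and ligands, which steer axons and migrating cells, changed in both directions. Of 30 semaphorin, plexin and neuropilin genes 9 rose and 6 fell (6 higher and 6 lower on TPM values; 7 to 9 higher and 4 lower with a library omitted). The receptor PLXNA2 was at 1.14 and 1.07 CPM in hESC and 346 and 366 CPM in hDE (log2 fold change 8.32 ± 0.61, adjusted p = 9.88e-05). Its relative PLXNA4 was at 2.34 and 3.22 CPM in hESC and 118 and 123 CPM in hDE (log2 fold change 5.43 ± 0.27, adjusted p = 2.18e-05). The ligand SEMA3E was at 2.28 and 1.92 CPM in hESC and 239 and 218 CPM in hDE (log2 fold change 6.76 ± 0.26, adjusted p = 1.5e-05). These 3 were below 4 CPM in both hESC libraries and above 100 CPM in both hDE libraries. SEMA6A, a membrane-bound ligand of A-type plexins, fell from 211 and 195 CPM to 14.8 and 15.9 CPM (log2 fold change -3.72 ± 0.31, adjusted p = 0.000157). Netrins NTN1 and NTN4 rose, from 1.26 and 2.15 CPM to 126 and 96.2 CPM and from 0.901 and 0.565 CPM to 65.3 and 44.1 CPM. The receptor ROBO1 and its ligand SLIT2 fell, from 220.5 and 184 CPM to 37.3 and 44.7 CPM (log2 fold change -2.30 ± 0.26, adjusted p = 0.000573) and from 23.8 and 23.4 CPM to 2.85 and 3.11 CPM (log2 fold change -2.98 ± 0.47, adjusted p = 0.00216). Among 21 Eph receptors and ephrins 4 rose and 8 fell (4 higher and 2 to 5 lower with a library omitted). EPHA2 rose from 18.8 and 15 CPM to 124 and 103 CPM (log2 fold change 2.75 ± 0.17, adjusted p = 6.19e-05) and EPHA1 fell from 133 and 142 CPM to 23.9 and 26.1 CPM (log2 fold change -2.45 ± 0.23, adjusted p = 0.000228).

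Contractile and cytoskeletal genes were mostly higher in hDE: 20 of 30 rose and 3 fell, with a median of 1.44. TAGLN, an actin-binding protein of smooth muscle, was at 25.7 and 30.6 CPM in hESC and 1980 and 1983 CPM in hDE (log2 fold change 6.14 ± 0.38, adjusted p = 5.62e-05). Its paralog TAGLN2 was at 21.8 and 24.2 CPM in hESC and 291 and 287 CPM in hDE (log2 fold change 3.65 ± 0.28, adjusted p = 0.000107). The myosin light chain MYL7, best known from the atrium of the heart, was at 0.3 and 0.113 CPM in hESC and 196 and 177 CPM in hDE (log2 fold change 9.78 ± 0.82, adjusted p = 0.000154). MYL9, of smooth muscle and non-muscle myosin, was at 18.6 and 19.3 CPM in hESC and 218 and 202 CPM in hDE (log2 fold change 3.47 ± 0.31, adjusted p = 0.000198). Of the markers of heart and lateral mesoderm given above none of 5 tested rose, while MIXL1, the only mesoderm marker tested, was higher in hDE. The part of such cells in this result was not tested. Per transcript length, TAGLN went from 14.3 to 708 TPM and the light chain MYL6 from 320.1 to 631 TPM. The kinase of smooth muscle myosin, MYLK, fell from 26.9 and 24.5 CPM to 1.78 and 3.33 CPM (log2 fold change -3.31 ± 0.57, adjusted p = 0.00327). With a library omitted, 15 to 18 higher and 1 lower were called.

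Transcription factor families also changed in both directions. Over all genes tested 20.3% were higher and 21.6% lower. The KLF and SP genes had 30% and 25%, and the nuclear receptors, at 24.24% each way, lay near those shares. Of 20 KLF and SP genes 6 rose and 5 fell, and on TPM values the counts were 4 higher and 5 lower (5 higher and 3 to 4 lower with a library omitted). KLF8 was at 14 and 10.8 CPM in hESC and 299.5 and 215 CPM in hDE (log2 fold change 4.37 ± 0.38, adjusted p = 0.000177). KLF5 was at 1.32 and 0.904 CPM in hESC and 61.8 and 47.4 CPM in hDE (log2 fold change 5.61 ± 0.55, adjusted p = 0.000294). SP4 was at 69.4 and 77 CPM in hESC and 16.6 and 17.1 CPM in hDE (log2 fold change -2.12 ± 0.16, adjusted p = 0.000115). KLF6 and KLF7 rose with the first pair, from 7.09 and 8.08 CPM to 97 and 102 CPM and from 12 and 14.5 CPM to 98.5 and 97.6 CPM, and KLF13 fell from 47 and 48.6 CPM to 14.1 and 15.7 CPM. Nuclear receptors had 8 higher and 8 lower of 33 (3 higher and 7 lower on TPM values; 4 higher and 5 lower with a library omitted). NR0B1 was at 0.0601 and 0.113 CPM in hESC and 9.53 and 15.6 CPM in hDE (log2 fold change 7.04 ± 0.56, adjusted p = 0.000241). RORB was at 16.8 and 21.8 CPM in hESC and 0.267 and 0.217 CPM in hDE (log2 fold change -6.28 ± 0.56, adjusted p = 0.000201). In the list of endoderm and gut regulators 11 of 23 rose and 1 fell (7 to 9 higher and 0 lower with a library omitted). PRDM1, a repressor that also marks germ cell precursors, was at 0.48 and 0.226 CPM in hESC and 73.9 and 106 CPM in hDE (log2 fold change 7.97 ± 0.60, adjusted p = 0.000107). LHX1, a factor of the anterior streak, was at 0.48 and 0.565 CPM in hESC and 60.2 and 36.1 CPM in hDE (log2 fold change 6.50 ± 0.50, adjusted p = 0.000118). It was also among the definitive endoderm markers used to check the label.

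RNA-binding regulators of splicing changed in both directions, and the largest changes were in few genes. MBNL1, a muscleblind protein, was at 21.9 and 23.5 CPM in hESC and 0.623 and 0.652 CPM in hDE (log2 fold change -5.13 ± 0.37, adjusted p = 8.96e-05). RBM24, a regulator of muscle splicing, was at 0.36 and 0.226 CPM in hESC and 40.4 and 33.2 CPM in hDE (log2 fold change 6.94 ± 0.92, adjusted p = 0.00109). CELF2 was at 26.7 and 26.6 CPM in hESC and 106 and 118 CPM in hDE (log2 fold change 2.07 ± 0.18, adjusted p = 0.00017). ELAVL2, of the neuronal Hu family, fell from 30.7 and 37 CPM to 4.09 and 2.75 CPM (log2 fold change -3.31 ± 0.27, adjusted p = 0.000141). Over 29 regulators 5 rose and 8 fell (2 higher and 9 lower on TPM values, and 3 to 4 higher and 5 to 6 lower with a library omitted). That is 17.24% higher and 27.59% lower, against 20.3% higher and 21.6% lower over all genes tested. The broadly used PTBP1 and RBFOX2 did not pass the test. PTBP1 was at 235 and 252 CPM in hESC and 264 and 246 CPM in hDE.

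The machinery of protein synthesis was lower by small steps. Of 82 cytosolic ribosomal protein genes 41 fell and none rose, with a median of -0.42, and their summed level went from 54650 CPM as the hESC mean to 39480 CPM as the hDE mean. RPS20 was at 759 and 772 CPM in hESC and 403 and 458 CPM in hDE (log2 fold change -0.83 ± 0.14, adjusted p = 0.00254). RPL13A was at 1690 and 1703 CPM in hESC and 788 and 932 CPM in hDE (log2 fold change -0.98 ± 0.17, adjusted p = 0.00327). Most of these changes are under 2-fold, and with 1 of the 4 libraries omitted 0 higher and 7 to 23 lower were called. Ribosomal proteins have many processed pseudogenes, between which the counting could divide reads. Ribosome biogenesis genes had 19 of 30 lower and 1 higher (1 higher and 7 to 12 lower with a library omitted): nucleophosmin NPM1 was at 2179 and 2341 CPM in hESC and 1012 and 1036 CPM in hDE (log2 fold change -1.14 ± 0.14, adjusted p = 0.000657). Fibrillarin FBL, which methylates ribosomal RNA, was at 193 and 192 CPM in hESC and 85.2 and 86.5 CPM in hDE (log2 fold change -1.16 ± 0.19, adjusted p = 0.00262). RRP9, a small nucleolar RNA-binding protein, was the exception, from 26.6 and 31.3 CPM to 89.4 and 90.4 CPM (log2 fold change 1.64 ± 0.14, adjusted p = 0.000154). Among mitochondrial genes encoded in the nucleus, 10 of 15 ATP synthase and 14 of 37 complex I subunits fell. ATP5MC2, of the membrane ring, was at 123 and 127 CPM in hESC and 50.6 and 49.2 CPM in hDE (log2 fold change -1.32 ± 0.14, adjusted p = 0.000353). NDUFB4 of complex I was at 86.2 and 88.9 CPM in hESC and 36.9 and 34.5 CPM in hDE (log2 fold change -1.29 ± 0.12, adjusted p = 0.00022). Of the 13 messenger genes encoded in mitochondria 1 fell and none rose (0 higher and 0 to 1 lower with a library omitted). MT-CO1 was at 2640 and 2210 CPM in hESC and 2268 and 2246 CPM in hDE. The omissions left 0 higher and 4 to 7 lower for ATP synthase and 0 higher and 5 to 8 lower for complex I, and on TPM values complex I had 0 higher and 28 lower.

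In chromatin, DNMT3B and DNMT1, which write DNA methylation, fell, and the TET genes, whose products oxidise it, split. DNMT3B, the de novo methyltransferase of stem cells, was at 817 and 1084 CPM in hESC and 188 and 181 CPM in hDE (log2 fold change -2.37 ± 0.28, adjusted p = 0.00063). DNMT1, which copies methylation after replication, was at 138 and 142 CPM in hESC and 58 and 57.5 CPM in hDE (log2 fold change -1.28 ± 0.14, adjusted p = 0.000482). TET2, which oxidises methylcytosine, was at 13.7 and 13.1 CPM in hESC and 48.9 and 44.5 CPM in hDE (log2 fold change 1.80 ± 0.17, adjusted p = 0.000279). TET3 rose from 31.2 and 29 CPM to 73.4 and 63 CPM (log2 fold change 1.18 ± 0.20, adjusted p = 0.00335), and TET1 fell from 184 and 206 CPM to 122 and 105 CPM (log2 fold change -0.78 ± 0.14, adjusted p = 0.00348). Of 14 genes 4 rose and 5 fell; on TPM values the counts were 0 higher and 5 lower, with TET2 and TET3 no longer called (adjusted p = 0.0627 and 0.266). Of the Polycomb genes 7 of 30 rose and 8 fell (3 higher and 8 lower on TPM values, and 6 higher and 3 to 4 lower with a library omitted). These are 23.33% and 26.67%, against 20.3% higher and 21.6% lower over all genes tested. In repressive complex 1 the polyhomeotic subunit changed: PHC1 was at 959 and 827 CPM in hESC and 46.6 and 44.4 CPM in hDE (log2 fold change -4.29 ± 0.15, adjusted p = 1.04e-05). PHC2 was at 13.7 and 12.6 CPM in hESC and 62.4 and 60.4 CPM in hDE (log2 fold change 2.23 ± 0.14, adjusted p = 6.25e-05). BMI1, its PCGF subunit, rose from 7.03 and 7.58 CPM to 35 and 31.4 CPM (log2 fold change 2.18 ± 0.20, adjusted p = 0.000209). Subunits of 1 complex thus rose and fell. The catalytic subunit RNF2 of complex 1 did not pass (-0.01 ± 0.17). JARID2, an accessory factor of complex 2, fell from 280 and 316 CPM to 95 and 78.4 CPM (log2 fold change -1.78 ± 0.18, adjusted p = 0.000299). Of the SWI/SNF remodeller genes 5 of 23 rose and 5 fell (3 higher and 6 lower on TPM values, and 3 higher and 1 to 2 lower with a library omitted). That is 21.74% each way, near the shares over all genes. SMARCD3 rose from 2.58 and 2.21 CPM to 19.9 and 19.7 CPM (log2 fold change 3.04 ± 0.37, adjusted p = 0.000781) and BCL7C from 6.61 and 7.69 CPM to 34.6 and 33.2 CPM (log2 fold change 2.24 ± 0.17, adjusted p = 0.00011).

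Cell cycle regulators of the G1 phase changed in opposite directions. CDK6 was at 35 and 39.8 CPM in hESC and 242 and 184 CPM in hDE (log2 fold change 2.51 ± 0.19, adjusted p = 0.000104), and its activator CCND1 fell, as given above. Cyclin E1, CCNE1, fell from 31.7 and 39.5 CPM to 12.8 and 13.2 CPM (log2 fold change -1.45 ± 0.20, adjusted p = 0.00119). Some inhibitors of these kinases rose, though not all that were tested. CDKN1B was at 23.2 and 21.9 CPM in hESC and 61.5 and 59 CPM in hDE (log2 fold change 1.42 ± 0.13, adjusted p = 0.000201). CDKN1C was at 3.9 and 2.94 CPM in hESC and 16.8 and 21.2 CPM in hDE (log2 fold change 2.48 ± 0.30, adjusted p = 0.000719). CDKN2B was at 0.12 and 0.113 CPM in hESC and 26.8 and 17.2 CPM in hDE (log2 fold change 7.46 ± 1.19, adjusted p = 0.00234). Of 31 genes in the list 6 rose and 10 fell (5 to 6 higher and 4 to 6 lower with a library omitted). That is 19.35% higher and 32.26% lower, against 20.3% higher and 21.6% lower over all genes tested.

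Genes of antigen processing for MHC class I fell or did not pass the test. Of 17 genes 9 fell and none rose, with a median of -1.09 (0 higher and 5 to 8 lower with a library omitted). The peptide transporter subunits TAP1 and TAP2 fell from 14.4 and 11.6 CPM to 1.87 and 1.52 CPM (log2 fold change -2.94 ± 0.32, adjusted p = 0.00043) and from 22.7 and 21.8 CPM to 1.51 and 1.3 CPM (log2 fold change -3.98 ± 0.30, adjusted p = 0.000111), and tapasin TAPBP from 17.6 and 13.2 CPM to 0.534 and 0.217 CPM (log2 fold change -5.37 ± 0.71, adjusted p = 0.00109). PSMB8, an immunoproteasome subunit, was at 12.2 and 9.61 CPM in hESC and 0 and 0.0724 CPM in hDE and so 272-fold lower (95% counting interval 48.5 to 10800) in hDE. Beta-2-microglobulin B2M fell from 51.6 and 49 CPM to 23.9 and 23.2 CPM (log2 fold change -1.09 ± 0.20, adjusted p = 0.0046). TRIM22, an antiviral factor, was at 47.4 and 32.1 CPM in hESC and 0 and 0.0724 CPM in hDE and so 990-fold lower (95% counting interval 177 to 39100). Later it was at 0.33 and 0.292 CPM in hAFE and 3.16 and 2.45 CPM in hPFE.

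Further genes at the extremes had no role in the families above. SLC5A9, a sodium-coupled sugar carrier, was at 0.12 and 0.113 CPM in hESC and 275 and 209 CPM in hDE (log2 fold change 10.92 ± 0.51, adjusted p = 2.03e-05), and ST6GALNAC2, a sialyltransferase, was at 0 and 0 CPM in hESC and 23.9 and 11.4 CPM in hDE and so at least 195-fold higher in hDE. VSNL1, a neuronal calcium sensor, was at 52.8 and 54.2 CPM in hESC and 0.089 and 0.145 CPM in hDE and so 447-fold lower (95% counting interval 153 to 2170). SLC5A9 was at 0.33 and 0 CPM in hAFE and 0.0607 and 0 CPM in hPFE. VSNL1 was at 0.661 and 0.512 CPM in hAFE and 1.21 and 0.649 CPM in hPFE. The hDE level of SLC5A9 was thus not seen in the hAFE or hPFE libraries, nor was the hESC level of VSNL1. Per transcript length, CD24, a surface glycoprotein, was among the 8 coding genes with the largest fall, from 649.9 to 89 TPM as stage means (log2 fold change -2.33 ± 0.17, adjusted p = 9.35e-05). TMSB10, a thymosin that binds actin monomers, was among the 8 with the largest rise, from 311 to 792 TPM (log2 fold change 1.91 ± 0.18, adjusted p = 0.000267).

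Of 727 intergenic long non-coding genes tested 168 rose and 111 fell (54 and 128 on TPM values, and 63 to 79 and 44 to 50 with a library omitted), against 2905 and 3467 of 14467 coding genes. Sense-intronic transcripts, which lie in introns of other genes, had 50 higher and 9 lower of 192 (17 and 11 on TPM values, and 21 to 24 and 4 to 6 with a library omitted). LINC00678 was at 129 and 114 CPM in hESC and 0.089 and 0.434 CPM in hDE (log2 fold change -8.72 ± 0.41, adjusted p = 4.54e-05). ESRG, a transcript known from stem cells, was at 117 and 110.2 CPM in hESC and 6.32 and 7.75 CPM in hDE (adjusted p = 7.43e-05). LINC00458 was at 3.48 and 3.45 CPM in hESC and 187 and 155 CPM in hDE (log2 fold change 5.62 ± 0.19, adjusted p = 1.93e-05). LINC00458 rose while the other pair fell. In the later stages LINC00458 was at 0 and 0 CPM in hAFE and 0.121 and 0.0722 CPM in hPFE. LINC02413 was at 0 and 0 CPM in hESC and 31.3 and 25.1 CPM in hDE and so at least 320-fold higher in hDE, and LNCPRESS1 was at 21.4 and 17.1 CPM in hESC and 0 and 0.0724 CPM in hDE and so 481-fold lower (95% counting interval 86.1 to 19000).

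Coding genes were compared with the long non-coding genes that start head to head with them. Of 519 such pairs with starts within 1000 bases, both genes passed the test in 59, and in 57 of these (96.6%) they changed in the same direction, 34 higher and 23 lower. Among 1118 head-to-head pairs of coding genes both passed in 176 and 135 (76.7%) agreed in direction, and among 1921 neighbouring coding genes on 1 strand both passed in 343 and 228 (66.5%) agreed. Pearson's r of the log2 fold changes was 0.682, 0.306 and 0.261 in that order; pairs share libraries and are not independent, so these values are a description. Of the 59 pairs 32 do not overlap in the annotation, and 31 of them agreed; 27 overlap, and 26 agreed. The library kit marks strand, but the sources used here do not say whether the counting used it, so reads of overlapping partners may not be told apart. GSC, a homeobox gene of the organizer, was at 0.18 and 0.0565 CPM in hESC and 71.6 and 78.9 CPM in hDE, and AL121612.2, which starts 41 bases away, was at least 138-fold higher. LHX1 and LHX1-DT, 124 bases apart, rose by 6.50 and 4.93 on the log2 scale. SEMA5A, a semaphorin, and SNHG18, 125 bases apart, rose by 4.12 and 2.46. LHX1-DT, SNHG18 and SLC2A1-AS1 were chosen after their values were seen, as partners of a named gene. SLC2A1 and SLC2A1-AS1, which overlap, fell by 2.63 and 3.85. Without hESC replicate 1 or hDE replicate 1 the adjusted p of SLC2A1-AS1 was 0.0564 and 0.0642.

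**Figure D5:**
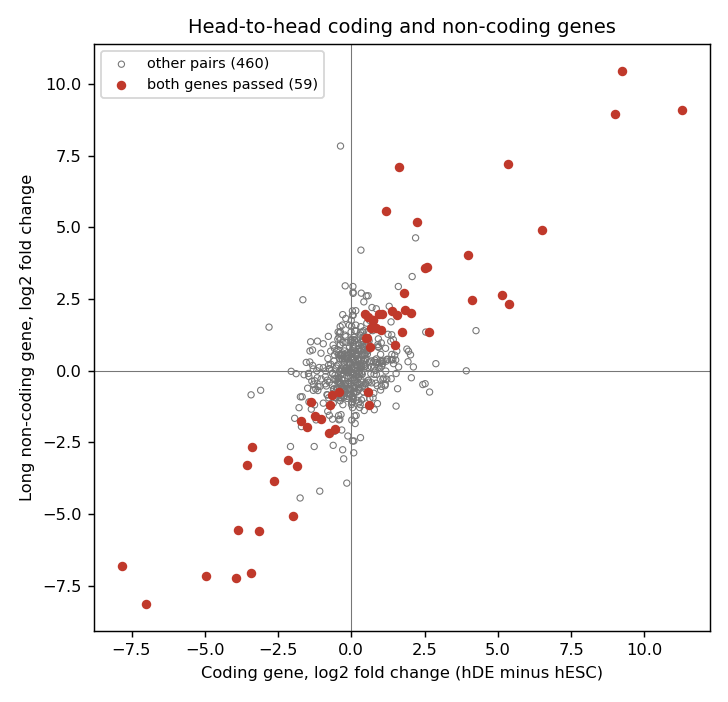
Log2 fold change (hDE minus hESC) of a coding gene against that of the long non-coding gene starting head to head within 1000 bases, for 519 pairs. Filled points are the 59 pairs in which both genes passed the test; 57 of them lie in the lower left or upper right quadrant.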

How the data were processed

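Ribosomal RNA was removed and strand-marking, paired-end libraries were sequenced, per the labels' protocols. The deposited gene tables hold expected counts and TPM made by the authors with RSEM on hg38, per the submitters' processing notes. DESeq2 is named there as well. Aligner, versions and strand setting are not given in the sources used here. Each of the 8 tables has 59526 rows, of which 58780 matched GENCODE 29 genes. The 649 tRNA and 97 spike-in rows held no counts.

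Expected counts were rounded and tested with edgeR 4.0.16 (R 4.3.3; quasi-likelihood test, TMM scaling, default count filter, Benjamini-Hochberg adjustment) in 1 fit of all 8 libraries with stage as the only term, which leaves 4 residual degrees of freedom. Ratios against a stage at 0 use a floor of 3 counts over its libraries; a ratio with few counts has a 95% counting interval, which covers counting error only. Alternatives were DESeq2 1.42.0, limma 3.58.1 on the authors' TPM (log2 of TPM + 1), other scalings, filters and designs, and leaving out each library. The procedure was tested on simulated data.

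Named genes are stage landmarks, the largest called changes at 10 CPM or more (10 coding genes each way and 6 long non-coding), the 8 largest TPM changes each way, and from each list the members if 12 or fewer, otherwise up to 6 called each way and 3 not called; exceptions are named in the text. Members and lists were chosen with earlier results of these data known. Some genes that the rule names are not reported here.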

Additional observations from a re-analysis of the deposited data

How the results depend on the processing

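The test called 7304 genes, 3533 higher and 3771 lower in hDE. DESeq2, RLE scaling, effective length offsets, a filter of 1 CPM, no filter, the 4 hESC and hDE libraries alone (10126 genes) and voom with a weight per stage moved each of these counts by less than 1.5 times. A minimum change of 2-fold left 2554 genes, 1190 higher and 1364 lower. On TPM values 982 genes were higher and 4430 lower, so that 18.1% of calls were higher against 48.4% in the test reported. On TPM values rescaled by median ratios, an alternative chosen after seeing the data, that share was 45.3%.

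Leaving out 1 library gave between 3695 and 8465 calls, between 1745 and 4041 higher and between 1848 and 4433 lower. The lowest totals came without hESC replicate 2 (3695), hDE replicate 1 (3757), hDE replicate 2 (3936) and hESC replicate 1 (3987), where the lone library left is assumed to vary like the other stages.

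Same-numbered libraries did not deviate together (correlation of -0.0491 for hESC and hDE, and from -0.0564 to 0.0613 over all pairs of stages). With the replicate number as a block 6909 genes were called, 3373 higher and 3536 lower, and with the block in the 4 libraries alone 10038, 4904 higher and 5134 lower.

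Of 190 genes named in the text and called, 156 kept the call in all 21 alternatives and none changed direction. Leaving out a library ended the call of 11 of them, among which AFP had adjusted p = 0.0502 without hDE replicate 1 and 0.0565 without hDE replicate 2; the other 10 are given beside their results. TPM values ended that of 17: beside those already given, AXIN2, CDKN2B, CRELD2, DNAJC3, NOTCH2, SARS, SLC2A3 and SLC3A2 (adjusted p = 0.0758, 0.147, 0.141, 0.0859, 0.395, 0.0705, 0.0687 and 0.0511). The minimum change of 2-fold ended that of 24. Of the 17 named genes not called, 4 passed in some alternative: HSP90B1 in 7, ERO1B in 2 (adjusted p = 0.0322 and 0.0253), and ENO1 and PDIA6 as lower on TPM values (adjusted p = 0.0308 and 0.0386). The cause was not tested. In sparse genes depth is the limit, since 3 counts over both libraries equal 0.0874 CPM in hESC and 0.12 CPM in hDE.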

Other observations

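Of the KRAB and other C2H2 genes named ZNF 99 of 472 rose and 42 fell, with a median log2 fold change of 0.18. That is 20.97% higher and 8.9% lower, against 20.3% higher and 21.6% lower over all genes tested. The share that rose was thus near that of all genes, and the share that fell was smaller. On TPM values the order turned to 11 higher and 56 lower. With 1 of the 4 libraries omitted 37 to 45 higher and 17 to 22 lower were called. ZNF792 was at 11.7 and 10.5 CPM in hESC and 64.7 and 66.4 CPM in hDE (log2 fold change 2.56 ± 0.23, adjusted p = 0.000214), and ZNF483 fell from 107 and 118 CPM to 15.3 and 13.5 CPM (log2 fold change -2.96 ± 0.18, adjusted p = 5.62e-05).

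Of the hypoxia target genes 9 of 19 rose and 4 fell (2 higher and 5 lower on TPM values; 5 to 8 higher and 2 to 3 lower with a library omitted). BNIP3, a mitophagy receptor, was at 38.8 and 28.3 CPM in hESC and 166 and 154 CPM in hDE (log2 fold change 2.25 ± 0.18, adjusted p = 0.000134). Of the NRF2 and glutathione genes 2 of 28 rose and 9 fell (1 higher and 13 lower on TPM values; 1 higher and 4 to 9 lower with a library omitted). NFE2L2, which encodes NRF2, rose (log2 fold change 1.51 ± 0.20, adjusted p = 0.00112). Its target HMOX1, heme oxygenase, fell from 15.1 and 24.3 CPM to 1.96 and 1.59 CPM (log2 fold change -3.47 ± 0.38, adjusted p = 0.000443), as did the pentose phosphate enzyme TKT, from 636 and 629 CPM to 136 and 136 CPM (log2 fold change -2.22 ± 0.22, adjusted p = 0.000322).

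Among insulin-like growth factor genes 7 of 19 rose and 4 fell (1 higher and 3 lower on TPM values; 3 to 5 higher and 2 to 4 lower with a library omitted). The receptor IGF1R was at 41.2 and 33.6 CPM in hESC and 112 and 109 CPM in hDE (log2 fold change 1.56 ± 0.16, adjusted p = 0.000333), though it did not pass on TPM values (adjusted p = 0.231). The binding protein IGFBP4 fell from 46.5 and 44.4 CPM to 6.94 and 4.92 CPM (log2 fold change -2.94 ± 0.41, adjusted p = 0.00124).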
